A study of Mus musculus with 32 samples.

Results

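Of the 16741 genes in the deposited expression table, 7 were chosen by symbol because they define or follow the split of T cells into CD4 helper and CD8 killer lineages: Cd4, Cd8a and Cd8b1, which encode the coreceptors, Zbtb7b and Runx3, which encode the lineage factors ThPOK and RUNX3, and Cd40lg and Crtam, which encode a helper ligand and a surface receptor. All 7 were found, and none was removed by the filter on low values. The CD4 coreceptor binds MHC class II and the CD8 coreceptor, a pair of alpha and beta chains, binds MHC class I, and both bring the kinase Lck to the T cell receptor. ThPOK commits thymocytes to the CD4 lineage and holds back the CD8 programme, whereas RUNX3 silences Cd4 and acts at Cd8 enhancers in CD8 cells, and the factors oppose each other's expression. In graft-versus-host disease (GVHD), donor T cells of both lineages respond to the host's histocompatibility antigens.

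The study is a mouse model in which C57Bl6 donor T cells were given to major-mismatched Balb/c recipients, and from spleen and lymph nodes, donor T cells were sorted as CD4, CD8 or regulatory (Treg) cells for bulk RNA sequencing. The 31 libraries fell into 10 groups. Cells taken before transplantation (day 0) gave 2 libraries each for CD4, CD8 and Treg cells. After transplantation, syngeneic controls without treatment gave 3 CD4 and 3 CD8 libraries, and allogeneic recipients with untreated GVHD gave 4 and 4. Allogeneic recipients given Treg cells on day 0 gave 4 CD4, 4 CD8 and 3 Treg libraries. Sample titles put the collection at day 6 and the design text at day 8. Sexes, ages and the strain of the syngeneic recipients are not stated in the labels used here. Libraries are named by their title prefix (JL019 or JL027) and the recipient number that follows it; the labels do not say what the prefix marks or whether libraries with the same number came from 1 animal. Values listed for a group are in the order JL019 then JL027, by recipient number within each. If libraries of a group were not from separate animals, the p-values measure only the spread between these libraries.

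Values are the authors' normalised counts per gene, and the depth of the RNA libraries is unknown. Within groups, libraries correlated at 0.883 to 0.977 (Pearson r over genes of log2 values, 36 pairs). One CD4 library, syngeneic JL019-2, stood apart. Its highest gene was S100a8, a neutrophil gene, at 1511210, and its Cd3e, a T cell receptor subunit, was 5737 against 21298 and 18990 in the other syngeneic CD4 libraries. Results that rest on the syngeneic CD4 group or its spread are given with and without it where it moved them. The Treg label was checked at day 0. Il2ra was 11229 to 13064 in Treg against 1923 to 1981 in CD4 libraries and Ikzf2 was 14183 to 19287 against 1619 to 1770, but Foxp3, the defining factor, went against the label, with 198 and 442 in Treg and 978 and 1145 in CD4 libraries.

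In GRCm38.p6 coordinates from RefSeq, Cd4 lies on chromosome 6 at 124864693 to 124888247, and Cd8b1 (71322788 to 71337492) and Cd8a (71373427 to 71379171) are neighbours on the same chromosome. Zbtb7b lies on chromosome 3 at 89377644 to 89393673, Runx3 on chromosome 4 at 135120645 to 135177990, Cd40lg on the X chromosome at 57212143 to 57224042 and Crtam on chromosome 9 at 40972798 to 41004628. Stretches upstream of 3 transcription starts are shown because RUNX3 and ThPOK regulate one another and Cd8a is a RUNX3 target. Each holds the 250 bases before an annotated start, 5′ to 3′ on the gene's strand, from RefSeq (GRCm38.p6), and capitals mark the RUNX motif TGTGGT or TGCGGT or its complement on the other strand.
Zbtb7b, minus strand, chr3:89387672-89387921: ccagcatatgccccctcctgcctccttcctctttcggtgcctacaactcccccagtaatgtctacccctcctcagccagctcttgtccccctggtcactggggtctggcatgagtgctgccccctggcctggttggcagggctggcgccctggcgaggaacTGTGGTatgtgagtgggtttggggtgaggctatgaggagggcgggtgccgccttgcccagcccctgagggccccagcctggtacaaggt
Runx3, plus strand, chr4:135120395-135120644: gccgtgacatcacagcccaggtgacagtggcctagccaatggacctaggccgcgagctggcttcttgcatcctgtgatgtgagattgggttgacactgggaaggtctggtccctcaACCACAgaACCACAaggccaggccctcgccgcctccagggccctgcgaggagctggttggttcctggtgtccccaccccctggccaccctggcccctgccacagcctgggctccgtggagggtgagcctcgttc
Cd8a, plus strand, chr6:71373177-71373426: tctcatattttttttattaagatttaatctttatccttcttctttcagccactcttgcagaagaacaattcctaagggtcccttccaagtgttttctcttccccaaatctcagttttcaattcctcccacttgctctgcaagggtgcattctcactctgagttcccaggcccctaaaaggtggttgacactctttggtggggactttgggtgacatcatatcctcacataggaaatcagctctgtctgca
The Zbtb7b stretch held 1 motif, starting 89 bases before the start, and the Runx3 stretch held 2, starting 134 and 126 bases before it. The Cd8a stretch held no such motif, nor did the stretch before the other listed start of Zbtb7b or of Runx3. For Zbtb7b and Runx3 the stretch shown is thus the one that held a motif. Of 32851 stretches of the same length, 18.6% held at least 1 match, so these matches are a description of the letters only.

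The coreceptors are the markers by which the cells were sorted, so their difference between CD4 and CD8 libraries is given as a description with no test. Cd8a averaged 16902 to 45669 in the 4 CD8 groups and 33.4 to 38.1 in the CD4 groups other than the syngeneic one. In the syngeneic CD4 group it was 58.2, 1956 and 114, and the 1956 belongs to JL019-2. Cd4 averaged 10920 to 19770 in the 4 CD4 groups and 33.2 to 61.1 in the CD8 groups. The 10920 is the syngeneic mean, which includes JL019-2 at 1659. Cd4 in CD8 cells averaged 0.218% to 0.415% of the CD4 mean of the same arm, and single CD8 libraries reached 0.632%. Cd8b1 was detected in every CD4 library, at a group mean of 462 to 1694, which was 0.946% to 1.94% of the CD8 mean of the arm. The 1694 and 1.94% are the syngeneic group, where JL019-2 had 3160 and the other CD4 libraries 886 and 1036.

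**Figure D1:**
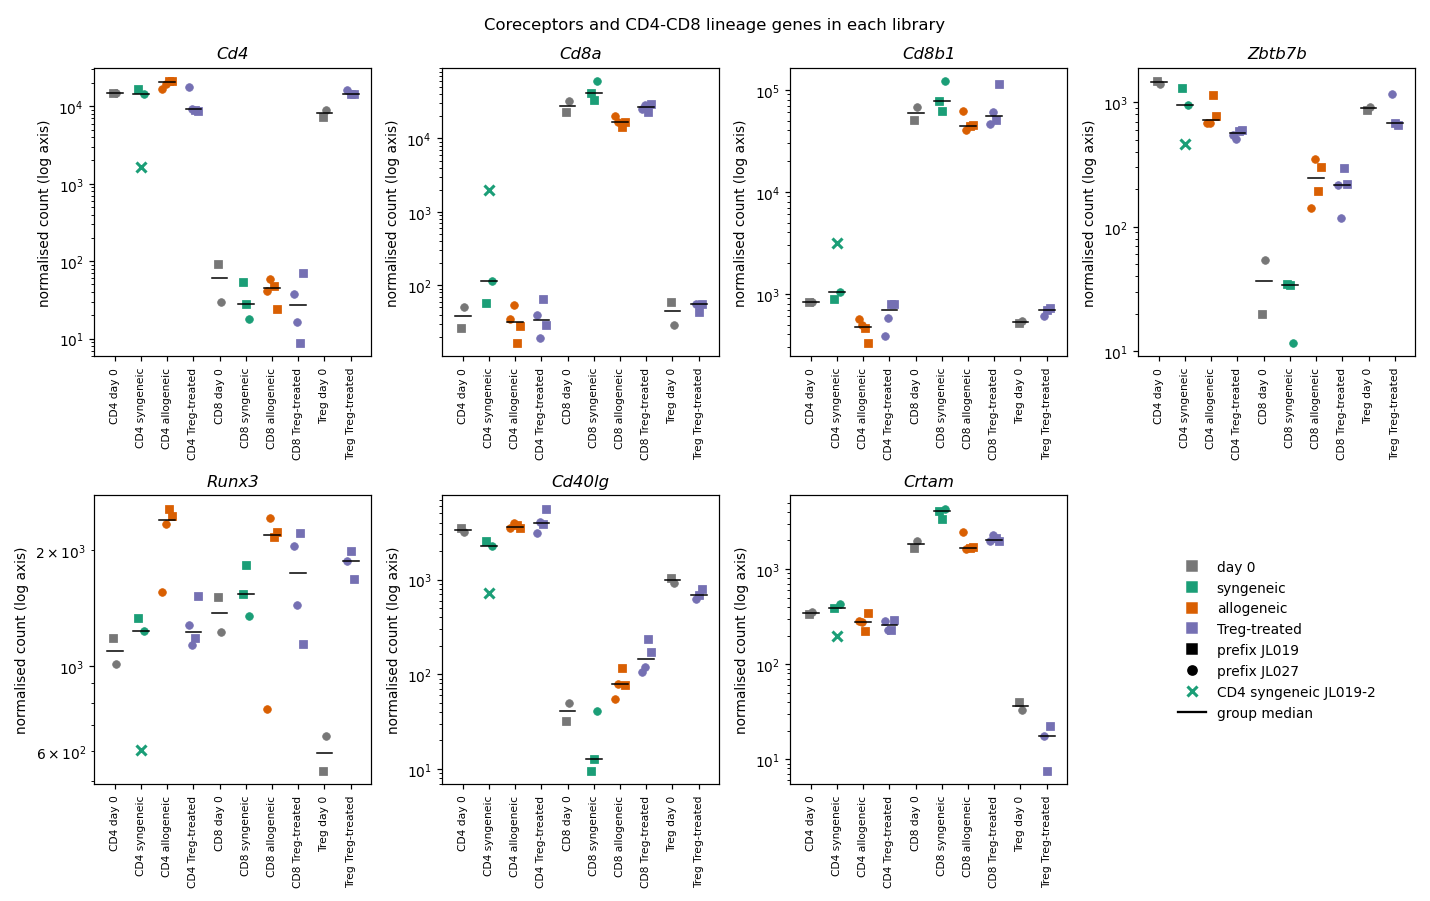
Normalised count (log axis) of each of the 7 genes in the 31 libraries by cell type and arm; each point is 1 library, coloured by arm and shaped by title prefix, the cross is syngeneic CD4 JL019-2 and each bar is a group median. Zbtb7b separates CD4 from CD8 cells by less in the allogeneic and Treg-treated arms than at day 0, and syngeneic CD4 JL019-2 has 1659 for Cd4.

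Cd4 was lower in most, but not all, CD4 libraries from Treg-treated recipients, and the difference did not pass the test. Cd4 was 21374, 21481, 16706 and 19519 in the allogeneic CD4 libraries (JL019-1, JL019-2, JL027-1, JL027-2), a mean of 19770 ± 2232 (SD, n = 4). In the Treg-treated CD4 libraries it was 9108, 8722, 17587 and 9370, a mean of 11197 ± 4269 (SD, n = 4). All Treg-treated libraries except JL027-1 lay below every allogeneic library, whereas JL027-1 lay within the allogeneic range, so the groups overlapped. The log2 change was −0.88 (SE 0.56, 95% interval −2.03 to 0.27), with an adjusted p of 0.263 by limma. None of the 7 genes was called by limma in this comparison at an adjusted p under 0.05, against 22.2% of all genes, and 1, Runx3, had an unadjusted p under 0.05 (0.0116). Leaving out 1 library at a time, that share of all genes was 2.81% (without Treg-treated JL019-2) to 33.6% (without Treg-treated JL027-1). Within the title prefixes the change was −1.27 for JL019 and −0.49 for JL027.

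Whether Cd4 was called, and the size of its change, depended on the settings of the fit. With only the libraries of those 2 groups in the fit, the limma adjusted p for Cd4 was 0.019, with libraries weighted by quality it was 0.0179 (change −1.07), and with the library mean as a covariate the change was −0.41 (adjusted p 0.763). With syngeneic JL019-2 left out of the shared spread the adjusted p was 0.128. Library means moved with the result: in the Treg-treated CD4 libraries other than JL027-1 they were 1817 to 2118, in JL027-1 1608 and in the allogeneic libraries 1504 to 1669. Actb, a cytoskeletal gene, was likewise 847773 to 959482 in those Treg-treated libraries, 534964 in JL027-1 and 438960 to 505965 in the allogeneic libraries. The summed value of 7 myeloid markers was 23254 to 85557 in the Treg-treated and 5113 to 10591 in the allogeneic CD4 libraries, with no overlap. The mitochondrial share of the summed values was 1.82% to 2.53% in the Treg-treated libraries with low Cd4, 1.59% in JL027-1 and 1.01% to 1.57% in the allogeneic ones, also with no overlap. The summed value of 3 erythroid markers was 2580 to 29438 in the Treg-treated and 227 to 4968 in the allogeneic CD4 libraries, which overlapped. The part of these in the Cd4 result was not tested. In bulk samples, fewer cells of a type and less RNA per cell cannot be told apart.

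Relative to Cd3e, which encodes a subunit of the T cell receptor complex, the pattern was similar. The other CD3 genes had higher medians in the Treg-treated than in the allogeneic CD4 libraries. The ratio of Cd4 to Cd3e was 0.861 to 1.08 in the allogeneic and 0.341 to 1.06 in the Treg-treated CD4 libraries, means of 0.973 ± 0.103 and 0.586 ± 0.322 (SD, n = 4). The difference was −0.86 on the log2 scale, with p = 0.114 by a two-sided exact permutation test and 0.183 after adjustment over the 8 ratio comparisons made, where the smallest p possible was 0.0286. At day 0 the ratio averaged 0.592 and in the syngeneic group 0.611, so the allogeneic mean was the highest of the 4. The syngeneic mean includes JL019-2, at 0.289, and the other syngeneic CD4 libraries were at 0.776 and 0.768. Cd3d and Cd3g, which encode other CD3 subunits, had medians of 39936 and 62409 in the Treg-treated and 20594 and 28224 in the allogeneic CD4 libraries. The sum of the 3 CD3 genes was 112125 to 152769 in the Treg-treated libraries with low Cd4, 73924 in JL027-1 and 62924 to 76452 in the allogeneic libraries. JL027-1 lay within the allogeneic range, so the sums of the arms overlapped, and their part in the Cd4 result was not tested.

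**Figure D2:**
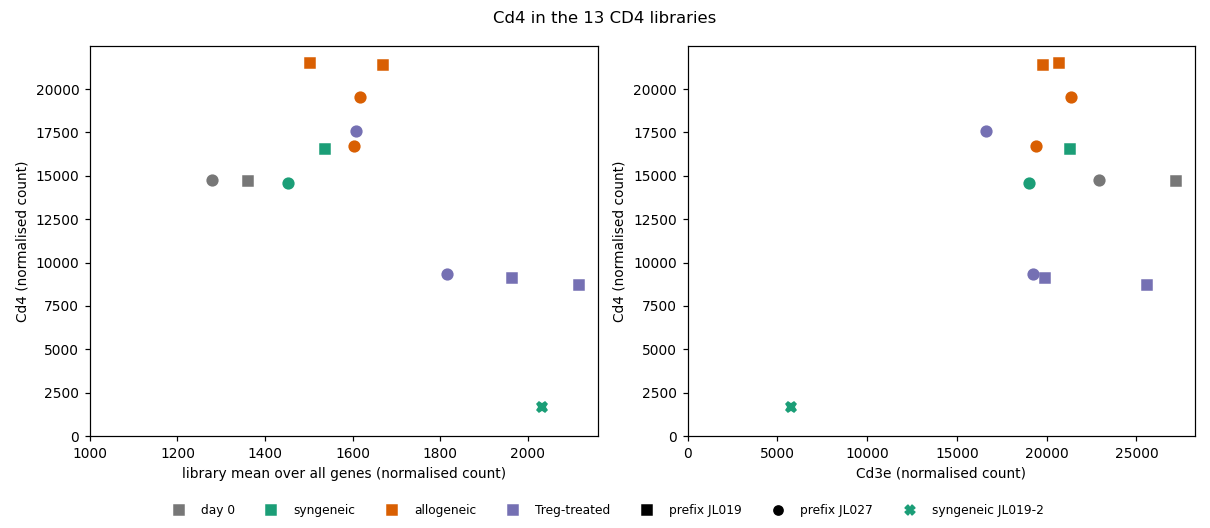
Cd4 in the CD4 libraries (vertical axes, normalised count) against the mean of all genes in the library (left, axis from 1000) and against Cd3e (right); each point is 1 library, coloured by arm and shaped by prefix, and the cross is syngeneic JL019-2. Of the 4 Treg-treated libraries, 3 (8722 to 9370) lie below the allogeneic ones (16706 to 21481) and have the higher library means, and the other, at 17587, lies among them.

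Against the other arms, allogeneic Cd4 was not called higher. The syngeneic values were 16526, 1659 and 14577 and all lay below the allogeneic ones, with a change of 1.42 (SE 0.61, limma adjusted p 0.128). These groups had no overlap for 23.2% of all genes. Without JL019-2, the library at 1659, the change was 0.34 (adjusted p 0.824), and without JL019-1 it was 2.00 and called (adjusted p 0.0374). At day 0 Cd4 was 14693 and 14778. In Treg libraries Cd4 was 7239 and 9029 at day 0 and 14512, 14525 and 16083 after transplantation. Those Treg groups did not overlap, as for 50.9% of all genes. The change of 0.89 was not called (SE 0.72, limma adjusted p 0.497), although it was with only those groups or only Treg libraries in the fit (adjusted p 0.00171 for each).

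In CD8 cells, Cd8a was lowest in the allogeneic arm. It was 42077, 33817 and 61115 in the syngeneic CD8 libraries and 14160, 16664, 19947 and 16836 in the allogeneic ones, with no overlap, as for 30.3% of all genes. The change was −1.40 (SE 0.66) and was not called, with a limma adjusted p of 0.139. It was called, at 0.00467, when syngeneic CD4 JL019-2 was left out of the shared spread, although no CD8 value changed. The summed value of the 7 myeloid markers was 37414 to 61387 in syngeneic, 5185 to 9440 in allogeneic and 10636 to 29650 in Treg-treated CD8 libraries. Its part in the CD8 results between any of these arms was not tested. Cd8a in Treg-treated CD8 libraries was 22586, 29769, 25031 and 28831, all above the allogeneic libraries, with a change of 0.65 that was not called (SE 0.61, limma adjusted p 0.662). None of the 7 genes was called by limma between Treg-treated and allogeneic CD8 cells, against 0.0657% of all genes (1, Cd40lg, had an unadjusted p under 0.05, 0.0187), and 4.89% of all genes had groups that did not overlap. The Treg-treated-against-allogeneic change also differed between CD8 and CD4 cells for none of the 7 by limma, against 0.00597% of all genes, and none had an unadjusted p under 0.05.

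Cd8b1, the beta chain, had overlapping groups. It was 77253, 61579 and 122919 in syngeneic, 44470, 44702, 61715 and 40800 in allogeneic and 50962, 113800, 46742 and 60123 in Treg-treated CD8 libraries. The change from syngeneic to allogeneic was −0.82 (SE 0.35, limma adjusted p 0.0949), and with syngeneic CD4 JL019-2 out of the shared spread the adjusted p was 0.0308. The ratio of Cd8b1 to Cd8a was 1.89 ± 0.106 in syngeneic (SD, n = 3) and 2.84 ± 0.343 in allogeneic CD8 libraries (SD, n = 4). The difference of 0.58 on the log2 scale had an exact two-sided permutation p of 0.0571, which is the smallest that design allows, and 0.114 after adjustment.

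In CD4 cells, the low Cd8a and Cd8b1 signals were called lower in the allogeneic than in the syngeneic arm, in a comparison where 14.6% of all genes and 4 of the 7 were called. The summed value of the 7 myeloid markers moved with every allogeneic-against-syngeneic CD4 result: it was 83539 and 77637 in syngeneic JL019-1 and JL027, 3576610 in JL019-2 and 5113 to 10591 in the allogeneic libraries, and its part was not tested. Cd8a in allogeneic CD4 libraries was 16.4 to 54.5, below all 3 syngeneic libraries, with a change of −2.91 (SE 0.66, limma adjusted p 0.00256). Without JL019-2 it was −1.39 (adjusted p 0.0251). Cd8b1 changed by −1.65 (SE 0.35, limma adjusted p 0.00129) and by −1.08 without that library (adjusted p 0.0245). Both calls were lost with only the groups compared in the fit (limma adjusted p 0.159 for Cd8a and 0.0618 for Cd8b1) and within prefix JL027 (0.223 and 0.332), and that of Cd8a also with only CD4 libraries (0.0605) and within prefix JL019 (0.0824). Cd8a was also called higher in syngeneic than in day 0 CD4 cells (2.67, SE 0.79, limma adjusted p 0.0233), 1 of 7 against 13% of all genes, but without JL019-2 the change was 1.15 (adjusted p 0.164). That call was also lost without either day 0 library.

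Zbtb7b, the CD4 lineage factor, rose in CD8 cells of allogeneic recipients. In CD8 libraries Zbtb7b was 34.4, 33.9 and 11.7 in the syngeneic arm and 192, 302, 143 and 350 in the allogeneic arm. The groups did not overlap, and the lowest allogeneic value was above all day 0 and syngeneic ones. The change was 3.22 (SE 0.40) with a limma adjusted p of 7.19e-07, where 3 of the 7 genes and 21.1% of all genes were called. Across 22 alternative fits it was 2.73 to 4.15, with an adjusted p of at most 0.00423, and within the prefixes it was 2.78 (JL019) and 4.15 (JL027). Treg-treated CD8 libraries had 295, 220, 216 and 118, which overlapped the allogeneic range. Against the same syngeneic controls the change was 3.02 (SE 0.40, limma adjusted p 2.07e-06). Day 0 CD8 libraries had 19.9 and 53.8, below all allogeneic ones (49.9% of all genes had no overlap there). The change from day 0 to the allogeneic arm was 2.78 (SE 0.45, limma adjusted p 2.82e-05), the one call among the 7 where 30.4% of all genes were called. The erythroid sum was 15091 to 16739 in day 0 and 268 to 6983 in allogeneic CD8 libraries. The mitochondrial share was 2.53% to 2.56% and 1.33% to 1.96%. The part of either in the CD8 results against day 0 was not tested.

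In CD4 cells Zbtb7b did not follow that pattern. It was 1491 and 1412 at day 0, 1312, 462 and 956 in syngeneic, 1145, 771, 682 and 684 in allogeneic and 587, 597, 548 and 512 in Treg-treated CD4 libraries. Every Treg-treated value was below every allogeneic value, but the change of −0.52 was not called (SE 0.37, limma adjusted p 0.327), and 22.2% of all genes had groups that did not overlap there. The allogeneic libraries all lay below day 0, where 55.1% of all genes had no overlap, with a change of −0.86 that was not called (SE 0.45, limma adjusted p 0.191). That change was called with only those 2 groups in the fit (limma adjusted p 0.00555) and with library weights (−0.88, limma adjusted p 0.00732). The allogeneic-against-syngeneic change of Zbtb7b was larger in CD8 than in CD4 cells: the difference of the changes was 3.28 (SE 0.57, 95% interval 2.12 to 4.44, limma adjusted p 0.00058), the one call among the 7 where 4.65% of all genes were called. Without syngeneic CD4 JL019-2 the difference was 3.70 (adjusted p 9.38e-05).

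As a share of the CD4 mean of the same arm, Zbtb7b in CD8 cells was 2.54% at day 0 and 2.93% in the syngeneic arm. It was 30.1% in the allogeneic arm (17.4% to 42.6% over libraries) and 37.9% in the Treg-treated arm (21.0% to 52.7%). In the allogeneic and Treg-treated arms the CD8 means were 247 and 212 and the CD4 means 820 and 561. The higher Treg-treated share thus came with a lower CD4 mean, not with a higher CD8 mean. Cd4 in the same CD8 libraries was 0.218% of its CD4 mean in the allogeneic and 0.300% in the Treg-treated arm, with CD8 means of 43.1 and 33.6. Cd40lg was 1.22% at day 0, 1.13% in the syngeneic, 2.21% in the allogeneic and 3.76% in the Treg-treated arm. Markers of other cells moved with Zbtb7b in CD8 cells. The summed value of 5 Treg markers was 26181 to 34336 in allogeneic, 19387 to 34720 in Treg-treated, 3563 to 6765 in syngeneic and 2421 to 3011 in day 0 CD8 libraries. Foxp3 was 103 to 453 in allogeneic CD8 libraries and 0, 0 and 3.52 in syngeneic ones. Most of the sum in allogeneic CD8 libraries came from Ctla4 (11921 to 18092, against 95.2 to 157 at day 0), Il2ra (4878 to 7397, against 67.7 to 82.3) and Tnfrsf18 (7156 to 8363, against 1726 to 2060). Ikzf2, the Treg marker encoding Helios, was 381 to 694 in allogeneic CD8 libraries, which overlapped 508 to 719 at day 0 and lay above 78.9 to 133 in the syngeneic ones, against 11615 to 19287 in Treg libraries. Their part in the Zbtb7b result was not tested.

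**Figure D3:**
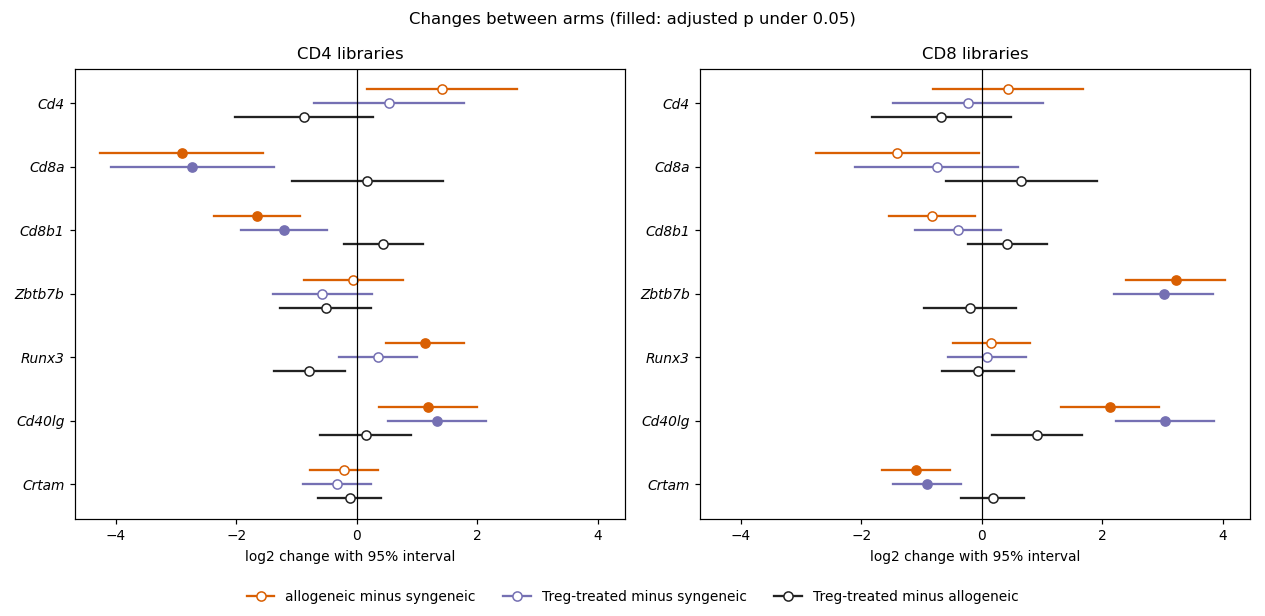
Log2 change of each of the 7 genes between arms within CD4 and within CD8 cells (axis, with 95% intervals from limma) by comparison in colour, filled where the adjusted p is under 0.05; comparisons within a cell type share libraries. The interval of Zbtb7b in CD8 cells lies well above 0 for allogeneic against syngeneic (3.22) and the Cd4 interval for Treg-treated against allogeneic CD4 cells (−0.88) includes 0.

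Runx3, the CD8 lineage factor, rose in CD4 cells of allogeneic recipients. In CD4 libraries Runx3 was 1179 and 1011 at day 0, 1330, 603 and 1233 in syngeneic, 2567, 2457, 1559 and 2335 in allogeneic and 1180, 1520, 1277 and 1132 in Treg-treated recipients. All 4 allogeneic libraries were above every other CD4 library, where 23.2% of all genes had no overlap against syngeneic and 55.1% against day 0. The change from the syngeneic arm was 1.14 (SE 0.31, limma adjusted p 0.0127). Without syngeneic JL019-2 it was 0.77 and not called (adjusted p 0.147), and the myeloid sums above (77637 or more in syngeneic, at most 10591 in allogeneic CD4 libraries) moved with it, which was not tested. From day 0 the Runx3 change was 1.00 (SE 0.36, limma adjusted p 0.0397), 1 call of 7 against 24% of all genes. That call was lost when either day 0 library or allogeneic JL019-1, JL019-2 or JL027-2 was left out. It was also lost with the replicate label as a block (1.24, limma adjusted p 0.123). The myeloid sum was 697 to 1573 at day 0 and 5113 to 10591 in allogeneic CD4 libraries. The Treg marker sum was 9099 to 9700 and 30249 to 39952. The part of either was not tested.

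Between Treg-treated and allogeneic CD4 cells Runx3 had groups that did not overlap, as for 22.2% of all genes. Its change of −0.79 (SE 0.29) just missed the threshold, with a limma adjusted p of 0.0516. With only those 2 groups in the fit the adjusted p was 0.0173, with syngeneic JL019-2 out of the shared spread it was 0.0282 and without allogeneic JL027-1 it was 0.0332 (change −0.95), whereas with the library mean as a covariate the change was −0.43 (adjusted p 0.376). The change was −0.91 within JL019 and −0.67 within JL027. The myeloid sum (23254 to 85557 against 5113 to 10591) and the mitochondrial share (1.59% to 2.53% against 1.01% to 1.57%) of the same libraries moved with it, and their part in the Runx3 result was not tested.

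Runx3 was not called different between CD8 and CD4 cells in any arm, but it was called higher in CD8 cells under some alternatives: in the syngeneic arm with median-centred libraries (0.85, limma adjusted p 0.0448) or the library mean as a covariate (0.87, limma adjusted p 0.0348), and in the Treg-treated arm with library weights (0.62, limma adjusted p 0.0212). Without CD4 JL019-2 the syngeneic difference was 0.28 and not called (limma adjusted p 0.618). CD8 means were 1370 at day 0, 1569 ± 242 in syngeneic (SD, n = 3), 1898 ± 758 in allogeneic and 1713 ± 507 in Treg-treated recipients (SD, n = 4). These were 125%, 149%, 85.1% and 134% of the CD4 means of the same arms, and the day 0 difference was 0.32 (limma adjusted p 0.912). The syngeneic CD4 mean includes JL019-2, at 603 against 1330 and 1233 in the other syngeneic CD4 libraries. The allogeneic CD8 values were 2160, 2228, 774 and 2431, with JL027-1 the lowest CD8 library of all. The change from syngeneic to allogeneic CD8 cells was 0.16 (limma adjusted p 0.778). With library weights it was 0.47 and called (limma adjusted p 0.0013). Without allogeneic CD8 JL027-1 it was 0.54 and without JL027-2 −0.0058, neither called. Treg cells had 533 and 655 at day 0 and 1996, 1681 and 1878 after transplantation, a rise of 1.64 (SE 0.37, limma adjusted p 0.00298) in a comparison where 2 of 7 and 13.3% of all genes were called. That call was lost without Treg day 0 JL019, which left 1 day 0 library (change 1.49). The mitochondrial share of Treg libraries was 2.23% to 2.54% at day 0 and 1.11% to 1.51% after transplantation. The erythroid sum was 70.6 to 208 and 811 to 22584. The part of either in the Treg results against day 0 was not tested.

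The ratio of Zbtb7b to Runx3 set the factors against each other within a library; levels of different genes are not comparable here, so it is read only between groups. In CD4 cells it averaged 1.33 at day 0, 0.843 in syngeneic, 0.372 in allogeneic and 0.443 in Treg-treated recipients. In CD8 cells it averaged 0.0285, 0.0166, 0.138 and 0.128. From the syngeneic to the allogeneic arm it moved by −1.19 in CD4 (−1.26 without syngeneic JL019-2) and 3.06 in CD8 cells on the log2 scale, each with an exact two-sided permutation p of 0.0571, the smallest possible with those numbers. Between Treg-treated and allogeneic libraries it moved by 0.27 in CD4 (exact permutation p 0.229) and −0.13 in CD8 cells (exact permutation p 0.686). In Treg cells it averaged 1.52 at day 0 and 0.452 after transplantation.

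**Figure D4:**
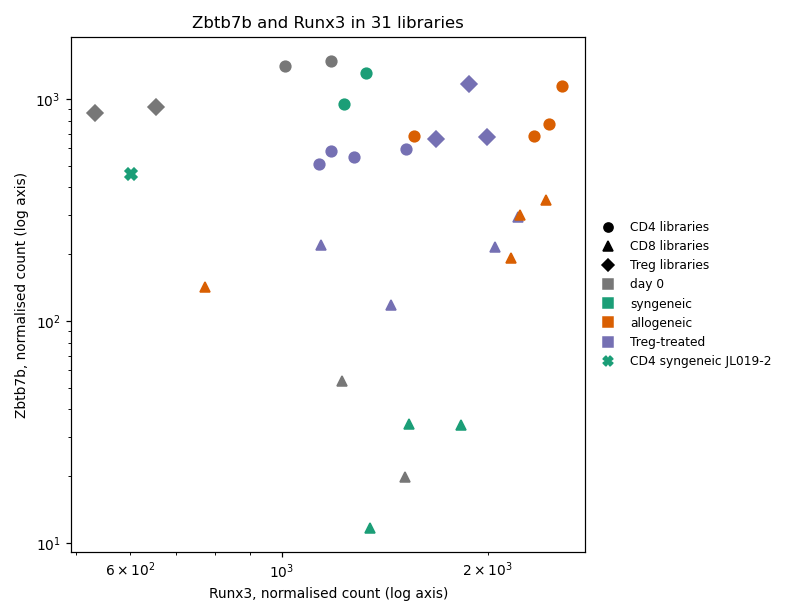
Zbtb7b against Runx3 in each of the 31 libraries (both axes log, normalised counts), shaped by cell type and coloured by arm. CD8 libraries of the allogeneic and Treg-treated arms (Zbtb7b 118 to 350) lie between the other CD8 libraries (11.7 to 53.8) and the CD4 libraries.

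Cd40lg encodes CD40 ligand, by which helper T cells activate B cells and dendritic cells. In CD8 libraries Cd40lg was 32.4 and 49.6 at day 0, 9.51, 12.6 and 40.8 in syngeneic, 115, 76.8, 54.1 and 78.9 in allogeneic and 233, 170, 105 and 118 in Treg-treated recipients. The allogeneic libraries all lay above the syngeneic ones, with a change of 2.13 (SE 0.40, limma adjusted p 0.000206). Within the prefixes the change was 2.99 for JL019 and 0.66 for JL027 (adjusted p 0.31). Treg-treated CD8 cells changed by 3.05 against the same controls (SE 0.40, limma adjusted p 1.5e-06), where 3 of 7 and 18.2% of all genes were called. Treg-treated and allogeneic CD8 libraries overlapped, with a change of 0.92 that was not called (SE 0.37, limma adjusted p 0.378). From day 0 to the allogeneic arm the groups did not overlap, but the change of 0.95 was not called (SE 0.45, limma adjusted p 0.11). It was called with the replicate label as a block (1.87, limma adjusted p 0.0296), with quantile normalisation (1.58, 0.0098) and with library weights (1.08, 0.0216).

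In CD4 cells, where the gene is known to be induced on activation, Cd40lg was 3735, 3517, 3480 and 3961 in allogeneic and 3847, 5619, 3066 and 4100 in Treg-treated libraries, with overlap. The syngeneic libraries had 2582, 724 and 2264, all lower than both (18% of all genes had no overlap between the Treg-treated and syngeneic arms), and day 0 libraries 3530 and 3204. The allogeneic change against syngeneic was 1.18 (SE 0.40, limma adjusted p 0.043), and 0.60 without JL019-2 (adjusted p 0.42). That call was also lost without any 1 of the 4 allogeneic libraries (adjusted p 0.0665 to 0.0906). The Treg-treated change was 1.33 (SE 0.40, limma adjusted p 0.0213), 1 of 3 calls among the 7 where 16.7% of all genes were called, and 0.75 without JL019-2 (adjusted p 0.144). The other calls there were Cd8a (−2.74) and Cd8b1 (−1.21), and without syngeneic JL019-2 they were −1.21 (adjusted p 0.0296) and −0.64 (adjusted p 0.134). The Cd40lg call was also lost without Treg-treated JL019-2 (1.17, limma adjusted p 0.076) and with quantile normalisation (1.14, 0.0518). With only those groups in the fit, none of the 3 calls was kept.

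CRTAM is a receptor of activated cytotoxic lymphocytes that binds a cell adhesion molecule. Crtam was highest in syngeneic CD8 cells. In CD8 libraries it was 1651 and 1994 at day 0, 4111, 3346 and 4323 in syngeneic, 1667, 1689, 2441 and 1643 in allogeneic and 2108, 1979, 1969 and 2258 in Treg-treated recipients. Every syngeneic value exceeded every other CD8 value; 51.5% of all genes had no overlap against day 0 and 23.3% against the Treg-treated arm. The syngeneic rise from day 0 was 1.10 (SE 0.33, limma adjusted p 0.0167), the one call of 7 where 24.2% of all genes were called, and it was lost without day 0 JL019 (adjusted p 0.184) or syngeneic JL027 (0.0607). The allogeneic change against syngeneic was −1.09 (SE 0.27, limma adjusted p 0.00444) and the Treg-treated one −0.91 (SE 0.27, limma adjusted p 0.0183). Neither prefix alone gave a call for the allogeneic change (−1.14 and −1.11, adjusted p 0.227 and 0.111), and the Treg-treated call was lost without syngeneic JL019-1 or JL027. The summed value of 4 NK markers (Ncr1, Klrb1c, Klre1 and Eomes) moved in the same direction. It was 1510 to 1755 at day 0, 7702 to 8485 in syngeneic and 2011 to 2461 in allogeneic CD8 libraries. Eomes was also listed as a cytotoxic gene of CD8 cells, so the sum is not particular to NK cells. The myeloid sum was 3450 to 4723 at day 0 and 37414 to 61387 in syngeneic CD8 libraries. The part of either was not tested.

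In CD4 libraries Crtam was 198 to 428 over the 4 arms. The difference of the allogeneic-against-syngeneic changes between CD8 and CD4 cells was −0.88 and was not called (limma adjusted p 0.233), and −0.53 without syngeneic CD4 JL019-2. With library weights it was −0.74 and called (limma adjusted p 0.0422). In Treg libraries Crtam was 39.7 and 33.0 at day 0 and 7.54, 22.3 and 17.8 after transplantation. Treg cells of Treg-treated recipients changed by −1.26 (SE 0.33, limma adjusted p 0.00862), a call lost without Treg day 0 JL019 (0.12) or Treg-treated JL019-1 (0.0791), with only those groups or only Treg libraries in the fit (0.167 for each) and with the replicate block (0.15). Treg cells had less Crtam than CD4 cells at day 0 (−3.21, SE 0.36, limma adjusted p 1.47e-06), the one call of 7 where 3.89% of all genes were called. In Treg-treated recipients the difference between Treg and CD4 cells was −4.05 (SE 0.27, adjusted p 3.57e-11) and for Cd40lg −2.54 (SE 0.40, adjusted p 4.52e-05), both by limma, where 2 of 7 and 30% of all genes were called and the median of all genes was 0.14. In the same libraries the myeloid sum was 1512 to 6769 in Treg and 23254 to 85557 in CD4 cells. The mitochondrial share was 1.11% to 1.51% and 1.59% to 2.53%, and the part of either was not tested. Between Treg and CD4 cells at day 0, Cd40lg just missed the threshold (−1.77, SE 0.52, limma adjusted p 0.0518). It was called in some alternative fits, such as with a recipient block (limma adjusted p 0.0241) or only those groups (0.000286), and not in others. With 1 day 0 library left out the change was −1.85 to −1.68.

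**Figure D5:**
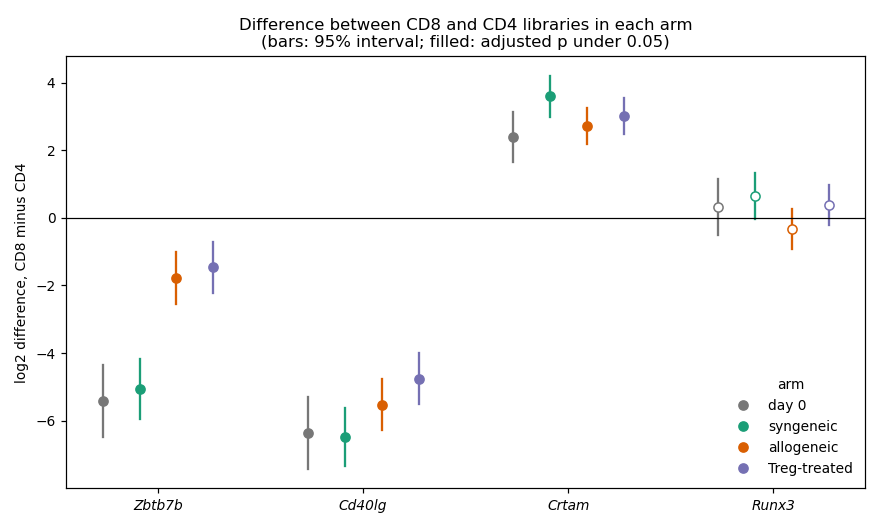
Log2 difference between CD8 and CD4 libraries of the same arm for Zbtb7b, Runx3, Cd40lg and Crtam with 95% intervals from limma (vertical axis), by arm in colour and filled where the adjusted p is under 0.05. Zbtb7b goes from −5.42 at day 0 to −1.78 in the allogeneic and −1.47 in the Treg-treated arm, Cd40lg lies between −6.48 and −4.76 in all 4 arms, Crtam lies above 0 and the Runx3 intervals include 0.

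Between CD8 and CD4 cells of an arm, Zbtb7b and Cd40lg were called lower and Crtam higher in CD8 cells in all 4 arms by limma, where 3.32%, 12%, 6.15% and 9.61% of all genes were called at day 0, syngeneic, allogeneic and Treg-treated. The Zbtb7b difference was −5.42 at day 0 (SE 0.52, adjusted p 1.21e-07 by limma), −5.06 in the syngeneic arm (−5.49 without CD4 JL019-2), −1.78 in the allogeneic arm (SE 0.37, adjusted p 0.00255) and −1.47 in the Treg-treated arm (SE 0.37, adjusted p 0.00983). The last call was lost without Treg-treated CD8 JL027-2 (−1.21, adjusted p 0.0597). Crtam differed by 2.40, 3.60, 2.72 and 3.01 in the same order of arms. Without CD4 JL019-2 the syngeneic difference was 3.25 for Crtam, and for Cd40lg −7.06 against −6.48 with that library.

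Other genes of these programmes were read through lists of lineage regulators, cytotoxic genes, helper genes and coreceptor signalling partners, and by limma at an adjusted p under 0.05. Between allogeneic and syngeneic CD8 cells, where 21.1% of all genes were called, 1 of 15 lineage regulators rose and 3 fell, a share near that of all genes. Tcf7, a factor of naive and memory cells, fell by 3.39 (SE 0.49, adjusted p 8.49e-06) and Tcf12, which encodes an E protein, fell by 0.80 (SE 0.24, adjusted p 0.0169). Of 12 cytotoxic genes 5 rose and 4 fell, and Gzmk rose by 5.98 and Gzmb by 3.24, both granule proteases. Of 12 helper genes 6 rose and 4 fell, and Tnfrsf4, the costimulatory receptor OX40, rose by 6.60 (SE 0.35, adjusted p 1.45e-13) and Rora, a nuclear receptor gene, by 4.36 (SE 0.37, adjusted p 8.52e-10). Among the partners, Cd5, an inhibitor of T cell receptor signalling, changed (−1.20, SE 0.31, adjusted p 0.00521), and Lck was at −0.69 and not called (adjusted p 0.0601).

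In allogeneic against syngeneic CD4 cells, where 14.6% of all genes were called, 8 of 12 cytotoxic genes rose and none fell, with Gzmb at 3.41 and Ctsw, which encodes a cathepsin, at 2.34. Of 12 helper genes 6 rose and 1 fell, with the costimulatory receptor genes Icos at 3.23 and Tnfrsf4 at 2.87. Among the regulators Gata3, the type 2 helper factor, changed by 2.47 and Myb by −1.28. Without syngeneic JL019-2, where 10.9% of all genes were called, 7 cytotoxic and 5 helper genes rose, and Gzmb, Icos and Gata3 were at 3.31, 2.72 and 1.64 by limma. Without that library Gzma (5.22, limma adjusted p 6.17e-11) and Lef1 (−1.05, limma adjusted p 5.24e-05) had lower adjusted p values than Gzmb (1.04e-08) and Gata3 (8.51e-05), and Myb was at −0.84 and not called (0.232). Between Treg-treated and allogeneic CD4 cells, where 22.2% of all genes were called, 3 of 15 regulators fell and none rose, a share near that of all genes, with a median of −0.48 against 0.00 for all genes. Tcf3, an E protein, changed by −1.54 (SE 0.38, limma adjusted p 0.0125) and Ikzf1, encoding Ikaros, by −1.29 (SE 0.36, limma adjusted p 0.0182). Of 12 helper genes 5 rose there, with a median of 1.03. Il4, the type 2 cytokine, rose between Treg-treated and allogeneic CD4 cells by 2.44 (SE 0.42, limma adjusted p 0.00241) and Izumo1r, a folate receptor family gene, by 1.40 (SE 0.27, limma adjusted p 0.005). The same myeloid sum (23254 to 85557 against 5113 to 10591) and mitochondrial share (1.59% to 2.53% against 1.01% to 1.57%) moved with these list genes, and their part was not tested. With syngeneic JL019-2 out of the shared spread, 6 regulators fell and 7 helper genes rose in that comparison (28.6% of all genes called), and 4 regulators rose and 5 fell and 2 partners fell between allogeneic and syngeneic CD8 cells (25% of all genes called). No cytotoxic gene or partner was called between Treg-treated and allogeneic CD4 cells, and no list gene between Treg-treated and allogeneic CD8 cells; with that library out of the shared spread, 2 cytotoxic genes fell and 1 partner rose in the former and 1 helper gene rose in the latter (0.466% of all genes called). In Treg cells of Treg-treated recipients against day 0, where 13.3% of all genes were called, 9 of 12 cytotoxic genes rose, among them Gzmb by 8.69 and Gzmk by 5.20, and of the regulators Tcf7 fell by 5.10 and Lef1 by 2.22.

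T cell receptor sequencing of the same cells gave a second view of the sorted populations. Of the beta chain (TRB) reads of each allogeneic CD4 library, 1.33% (JL019-1), 47.3% (JL019-2), 6.53% (JL027-1) and 4.47% (JL027-2) lay in clonotypes also seen in the CD8 library with the same recipient label. In the Treg-treated CD4 libraries the shares were 14.3% (JL019-1), 2.12% (JL019-2), 54.3% (JL027-1) and 1.85% (JL027-2). Each arm held 1 library with a TRB share far above the rest. In the Treg-treated arm that was JL027-1, the library with the highest Cd4, and the 3 libraries with low Cd4 had 1.85% to 14.3%. The means were 18.2% ± 24.8 and 14.9% ± 21.7 (SD, n = 4 each, Treg-treated and allogeneic), with p = 0.686 by a two-sided exact permutation test. Against CD8 libraries of other recipients in these arms the TRB share was 0.518% to 5.17%. Alpha chain (TRA) shares, in the same library order, were 3.04%, 6.03%, 6.37% and 3.83% in the allogeneic CD4 libraries. In the Treg-treated ones they were 2.10%, 5.47%, 18.3% and 6.27%, and against other recipients 1.90% to 6.32% in these arms. By TRA, JL027-1 stood apart in the Treg-treated arm and no allogeneic library did. The CD4 libraries held 10864 to 30048 TRB reads, and reads amplified by nested PCR are not independent molecules.

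Genes whose levels followed those of the members most closely over the 31 libraries are given as a description, since the libraries share cell types and arms. Cd4 was followed by Il9r (Pearson r 0.923), Tnfsf11 (0.913) and Ccr4 (0.910), and Cd40lg by Tnfsf11 (0.916), Ces2d-ps (0.881) and Il9r (0.880). Cd8a was followed by Bend4 (0.970), Tm6sf1 (0.937) and Rcn3 (0.913), and the same 3 genes led for Cd8b1 (0.964, 0.920 and 0.937). Zbtb7b was followed by Foxp3 (0.895) and Ptgir (0.852), and Runx3 by Galnt2 (0.877), Pnpla2 (0.862) and Os9 (0.846). Crtam was followed by Snai3 (0.951), St3gal6 (0.944) and Cracdl (0.911).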

How the data were processed

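RNA was copied to full-length cDNA with a SMARTer v4 kit and made into Nextera XT libraries, and nested PCR on that cDNA gave the receptor libraries (per the labels' protocols). The submitters' processing notes name FastQC 0.11.7, kallisto, DESeq2 and the builds GRCm38 and mm10. The authors deposited 1 table of normalised counts per gene and library (treated as a signal, since the values are not whole; with each gene's mean). Its log2 fold changes, p-values and test score from the authors' own fit were not used. The deposited receptor tables hold read counts per clonotype and the clonotype's percent of its library. Values were tested for whole reads: per library 9.52% to 31.6% of values under 30 were whole multiples of 1 step within 0.02, so reads were not recovered and no count model was run.

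Tests used limma 3.58.1 in R 4.3.3 on log2(value + 1) with a trended, robust spread over all 31 libraries and 10 groups, 19 contrasts, and Benjamini-Hochberg adjustment over all 16741 genes at 0.05. A mean of at least 1 was required, which removed 0 genes. Changes are on the log2(value + 1) scale, which understates those of low genes. Simulated data were used to check the fit. Ratios were tested by exact permutation. Tables were handled with pandas 2.3.3 (Python 3.11.15), permutations with scipy 1.17.1 on numpy 2.4.6, and plots with matplotlib 3.10.9. Libraries were not blocked by recipient, because the labels do not state shared animals. Same-numbered libraries deviated together, with every pair's r over 0.1, only between CD8 and CD4 allogeneic libraries (4 pairs, r 0.135 to 0.416); blocking by recipient changed no call among the 7 genes there. The named genes are the 7 members, the 2 genes with the lowest adjusted p (fit with all libraries) of each list in a contrast where genes of it are described, and the 3 genes most correlated with each member (1 of them is not reported here); the lists hold 46 genes, all in the table. Actb, single genes of the cell type marker lists (such as S100a8, Cd3d and Cd3g) and, without JL019-2, Gzma and Lef1 fall outside that rule and were named after their values were seen. Members and lists were chosen with earlier results of these data known, among them the low Cd4 in Treg-treated CD4 libraries. Fits within 1 prefix, with only the cell type compared and with syngeneic CD4 JL019-2 left out of the shared spread were added after seeing the data.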

Additional observations from a re-analysis of the deposited data

Results flagged for a closer look

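In 3 of the 28 sets of 4 libraries examined (7 genes in 4 groups), 1 library lay far from the others relative to the range; chance gives about 1 in 20. Cd4 in Treg-treated CD4 library JL027-1 was 17587, the highest of 4. Runx3 in allogeneic CD8 library JL027-1 was 774, the lowest of 4, and Crtam in the same library was 2441, the highest of 4. The allogeneic-against-syngeneic change of Zbtb7b differed between CD8 and CD4 cells by 3.28 on the log2 scale, by the interaction term of the limma model.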

How the results depend on the processing

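Of the 56 single-gene results, 52 kept their direction under every alternative run. Cd8b1 between Treg-treated and allogeneic CD4 cells turned to −0.22 with the library mean as covariate and −0.15 within prefix JL027. Cd8b1 between Treg-treated and allogeneic CD8 cells turned to −0.064 with the covariate. Runx3 between allogeneic and syngeneic CD8 cells turned to −0.0058 without allogeneic CD8 JL027-2 and ranged up to 0.54 without JL027-1, and between CD8 and CD4 allogeneic cells it ranged from −0.50 without CD4 JL027-1 to 0.052 without CD8 JL027-1. The causes were not tested. The number of the 7 genes called moved as follows, with the share of all genes called under the same alternative in parentheses. With a mean of at least 10, 1 was called between Treg-treated and allogeneic CD4 cells (25%) and 2 between Treg and CD4 cells at day 0 (4.32%). With the replicate label as a replicate block, 0 were called for allogeneic against day 0 CD4 cells (11.7%), 2 for CD8 cells (15.5%), 0 for syngeneic against day 0 CD4 cells (6.93%), 1 for Treg cells against day 0 (8.08%) and 2 between Treg and CD4 cells at day 0 (4.23%). The last was also 2 with a recipient block (5.46%), median centring (3.51%), quantile normalisation (4.96%) and the covariate (7.6%). The block by replicate label also ended the calls of Crtam for Treg-treated against syngeneic CD8 cells (limma adjusted p 0.0805) and of Cd8b1 for Treg-treated against syngeneic CD4 cells (0.0576). With only the groups compared, the counts were 2 for Treg-treated against allogeneic CD4 cells (25.1%), 0 (6.58%) and 5 (21%) for allogeneic against syngeneic CD4 and CD8 cells, 0 for Treg-treated against syngeneic CD4 cells (3.57%), 4 (39.6%) and 2 (30.5%) for allogeneic against day 0 CD4 and CD8 cells, 0 for syngeneic against day 0 CD4 cells (1.4%) and 6 for Treg against CD4 cells at day 0 (12.4%). Quantile normalisation gave 2 (26.2%) and 3 (29.4%) for allogeneic against day 0 CD4 and CD8 cells and 0 for syngeneic against day 0 CD8 cells (19.7%). The covariate gave 2 (30.7%) and 3 (37.3%) for the first pair, 0 (12.9%) and 2 (19.5%) for syngeneic against day 0 CD4 and CD8 cells, and 2 (9.03%) for the difference of the allogeneic changes between cell types. Library weights gave 3 for Treg-treated against allogeneic CD4 cells (47.5%), 6 for allogeneic against syngeneic CD8 cells (61.6%), 5 (48%) and 5 (44.2%) for Treg-treated against syngeneic CD4 and CD8 cells, 3 (47.4%) and 2 (35.5%) for allogeneic against day 0 CD4 and CD8 cells, 2 for syngeneic against day 0 CD8 cells (44.2%), 3 for Treg against CD4 cells at day 0 (15.7%) and 3 for the difference of the allogeneic changes (24.4%). For allogeneic against syngeneic CD4 cells, prefix JL019 alone gave 1 (4.8%) and JL027 alone 0 (2.28%). With syngeneic CD4 JL019-2 out of the shared spread, the counts were 1 for Treg-treated against allogeneic CD4 cells (28.6%), 5 for allogeneic against syngeneic CD8 cells (25%), 2 for allogeneic against day 0 CD4 cells (27%), 2 for syngeneic against day 0 CD8 cells (29.4%) and 2 for Treg against CD4 cells at day 0 (5.9%). With only the cell type compared, they were 1 for Treg-treated against allogeneic (17%), 1 for Treg-treated against syngeneic (12.8%) and 0 for syngeneic against day 0 CD4 cells (9.06%). Leaving out 1 library at a time gave 0 to 1 for Treg-treated against allogeneic (2.81% to 33.6%), 1 to 3 for Treg-treated against syngeneic (10.9% to 27.8%), 0 to 1 for allogeneic against day 0 (13% to 22.7%), 2 to 5 for allogeneic against syngeneic (10.9% to 15.4%) and 0 to 1 for syngeneic against day 0 CD4 cells (5.63% to 16.3%), 0 to 1 for syngeneic against day 0 CD8 cells (5.98% to 29.1%) and 0 to 2 for Treg cells against day 0 (6.5% to 10.2%). It moved the difference in shared TRB reads from −8.82 to 14.0 percentage points and the change of the Zbtb7b to Runx3 ratio between Treg-treated and allogeneic CD8 cells from −0.35 to 0.059. The depth of the RNA libraries is unknown, so no counting error could be given, and day 0 groups of 2 libraries limit every comparison with day 0. The median of all genes shifted by −0.13 and −0.10 for allogeneic and syngeneic against day 0 CD8 cells.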
